A study of Mus musculus with 6 samples.

Results

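The NF-kB pathway and inflammatory cytokine genes described here are 43 genes of the 53746 in the deposited count table, taken by matching gene symbols. They comprise 12 cytokine ligands (among them 1 receptor antagonist), 6 cytokine receptors, 8 adaptors and ubiquitin ligases, 4 kinases, 5 NF-kB subunits and a group of 8 IkB proteins and feedback inhibitors. Tnfaip2 was placed in that last group. RNA came from the cerebella of 6 mice at 2 months of age, 3 of each genotype, with 2 males and 1 female in each group. All 6 mice carried the STING N153S allele on both copies of Sting1 behind a floxed stop cassette (N153S LSL/LSL). Control mice carried no Cre. Pcp2-cre mice (N153S LSL/LSL Pcp2-cre) also carried the B6.129-Tg(Pcp2-cre)2Mpin/J transgene, in which the Pcp2 promoter drives Cre in Purkinje cells and so releases the allele there. The tissue was sequenced in bulk, so any signal from Purkinje cells was mixed with that of all other cerebellar cells.

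NF-kB is a family of dimeric transcription factors that IkB proteins hold in the cytoplasm of resting cells. Receptors for tumour necrosis factor, interleukin-family cytokines and microbial products signal through adaptors and ubiquitin ligases to the IkB kinase complex, which marks IkB for destruction and frees the dimers to enter the nucleus. STING, a sensor of cyclic dinucleotides, can activate both interferon genes and NF-kB, and several NF-kB targets encode its own inhibitors. The activation step acts on proteins, which transcript counts do not measure. The comparison asked whether transcripts of the pathway and its cytokines differed in the cerebellum once STING N153S was expressed in Purkinje cells.

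Total counts per mouse were 8151391, 6809768 and 10178218 in control mice 1 to 3 and 7565899, 8572674 and 6733178 in Pcp2-cre mice 1 to 3. At this depth a count of 0 allows up to 3 counts, a level between 0.297 and 0.447 CPM (counts scaled to the normalised library total) depending on the library. This limit covers counting error only. The deposited counts of Sting1 itself were 186, 183 and 264 in controls and 337, 296 and 240 in Pcp2-cre mice. Scaled for depth, all Pcp2-cre mice were above all controls, with a log2 fold change of 0.57 ± 0.10 (SE; edgeR, adjusted p = 0.000359). Counts per gene cannot separate the engineered allele from normal transcripts. The difference was smaller than the log2 size of 0.5 required for a call when Pcp2-cre mouse 1 was left out, at 0.45, and it was not called by limma on FPKM. Ifnb1, the interferon gene downstream of STING, had 0 counts in every mouse.

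Libraries stood apart in 1 respect. The summed level of 10 choroid plexus markers was 1614 and 2298 CPM in control mice 1 and 2, against 164 CPM in control mouse 3 and 164, 174 and 264 CPM in the Pcp2-cre mice. Enpp2 was the most abundant of them. Ttr, the transthyretin gene, had 5169, 6896 and 31 counts in controls and 32, 59 and 415 in Pcp2-cre mice. Counts of calls are therefore also given without those 2 mice, which leaves 1 control mouse against 3, with the lone control assumed to vary like the other mice.

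No member that could be tested passed the test in either direction. Of the 43 genes, 33 had enough counts for edgeR's quasi-likelihood test, and 0 were called higher and 0 lower. A call required an adjusted p (Benjamini-Hochberg, all tested genes) no larger than 0.05 and a log2 fold change of 0.5 or more, up or down. Across all 16961 genes tested, 1.37% were called higher (233 genes), 1.79% lower (304 genes) and 3.17% in either direction. The smallest adjusted p among members was 0.0517. At an unadjusted p under 0.05, 3 members were higher (Tnfrsf1a, Tnfrsf1b and Chuk) and 1 was lower (Traf1), where 8.36% of all tested genes were higher and 9.67% lower at that level. DESeq2 called 0 members, with 2 at an unadjusted p under 0.05, and limma on FPKM also called 0. Leaving out control mouse 1 gave 1 call (Tnfrsf1b), and leaving out control mice 1 and 2 together gave 1 call (Tnfrsf1a). The groups did not overlap in CPM for 6 tested members, all higher in Pcp2-cre mice, and for 0 in the other direction, against 10.8% and 11.4% of all tested genes. Overlap depended on which deposited values were used, and the FPKM are not the counts rescaled. In the deposited FPKM, Il33, Il1r1, Il6ra, Map3k14 and Nfkb2 were also separate, with Pcp2-cre mice higher, and Traf1 with Pcp2-cre mice lower, while Ikbkg and Relb overlapped. That holds for the tested members, and among the untested ones Il1b and Bcl3 overlapped in CPM but not in FPKM. Overlap elsewhere in the text refers to CPM unless FPKM is named.

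How far the sizes of the differences could be bounded varied with the model. In the edgeR fit the 95% interval of the log2 fold change lay wholly between -0.5 and 0.5 for 24 of the 33 tested members, as it did for 69.1% of all tested genes. With DESeq2, whose intervals are wider here, 14 members did so, and between 17 and 20 did with any 1 mouse left out of the edgeR fit. It lay between -1 and 1 for 31 members, as for 92.8% of all tested genes. The exceptions to the wider limit were Tnfsf13b and Tnfrsf1b. The median log2 fold change of the tested members was 0.08, with 21 above 0 and 12 below, beside a median of 0.00 over all tested genes. In the plot of intervals, the group of IkB proteins and feedback inhibitors lay near 0. The highest values were those of Tnfrsf1b, Tnfsf13b and Tnfrsf1a.

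**Figure D1:**
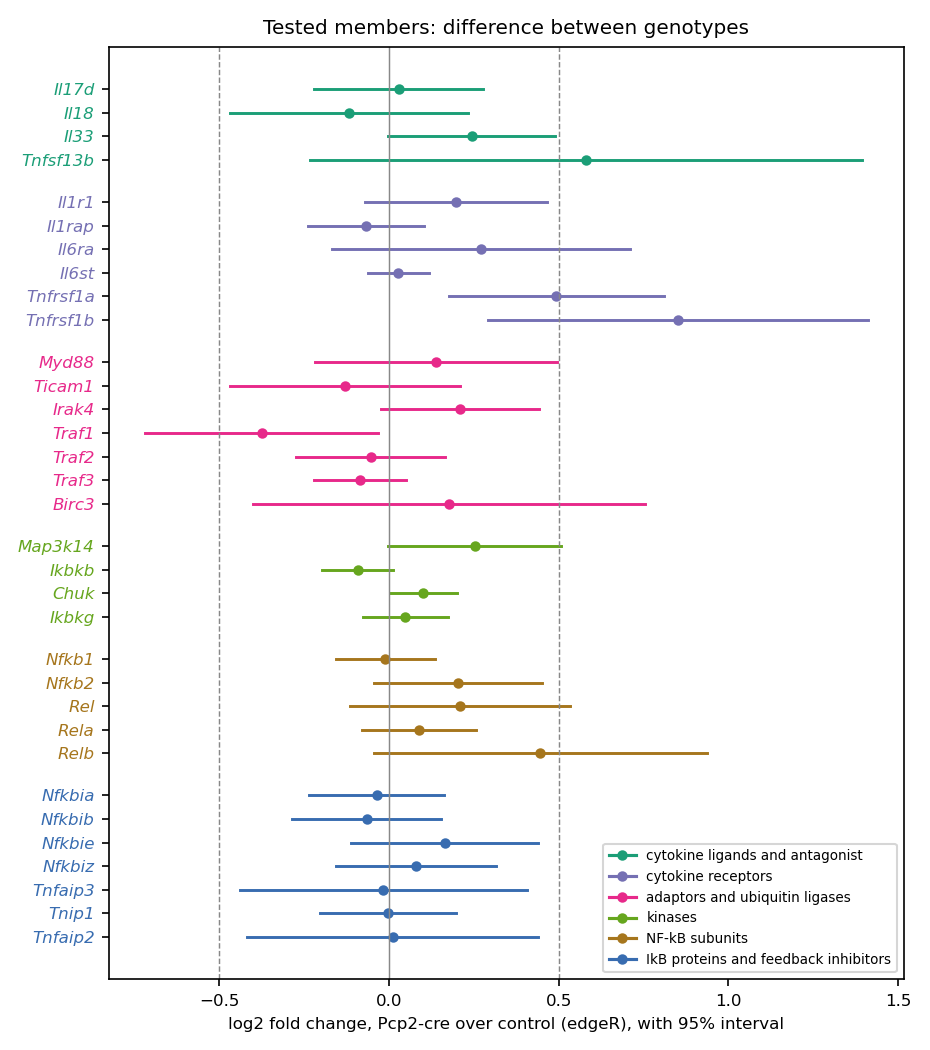
Log2 fold change of Pcp2-cre over control with its 95% interval (edgeR, 3 mice per group) for the 33 tested members, coloured by role. Dashed lines mark -0.5 and 0.5, and 24 intervals lie wholly between them.

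The classical inflammatory cytokines were at or near the limit of detection in all 6 cerebella. Tnf, the founding ligand of its family, had 0 counts in every control and 1, 3 and 1 counts in the Pcp2-cre animals. Il1b, a cytokine released by inflammasomes, had 0, 1 and 0 counts in controls and 0, 3 and 1 in Pcp2-cre mice. Il6, an inducer of the acute phase response, had 0, 1 and 1 counts in controls and 1, 0 and 0 in Pcp2-cre mice. The groups overlapped in counts for Il1b and Il6, while for Tnf every Pcp2-cre mouse was above the controls by counts that lie within the limit. These 3 genes were too low to be tested, and a difference below the limit was not detectable at this depth. No single mouse exceeded the floor for Tnf or Il1b. Summed over each group, Tnf went from 0 counts to 5, and no ratio is given because the control sum was 0. Il1b went from 1 count to 4, a ratio of 4.31 with a 95% counting interval of 0.427 to 212, which includes no difference.

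The other untested ligands also had few counts, and of these only Il23a was above the floor in every mouse. Il10, an anti-inflammatory cytokine, had 0 counts in every mouse, so no group was higher. Il12a, a subunit of interleukins that drive T cell responses, had 0 counts in each control and 3, 1 and 0 in Pcp2-cre mice, none above the floor. The groups overlapped, since Pcp2-cre mouse 3 was at 0 as well. Il1rn, which encodes the interleukin receptor antagonist, had 0 counts in each control and 1 in each Pcp2-cre mouse, so both groups were at or under the floor and no fold is given. Il1a, an alarmin of the same family, had 5, 1 and 8 counts in controls and 3, 3 and 2 in Pcp2-cre mice, and the groups overlapped. Il23a, another T cell cytokine subunit, had 7, 5 and 10 counts in controls and 6, 11 and 9 in Pcp2-cre mice, again with overlap.

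**Figure D2:**
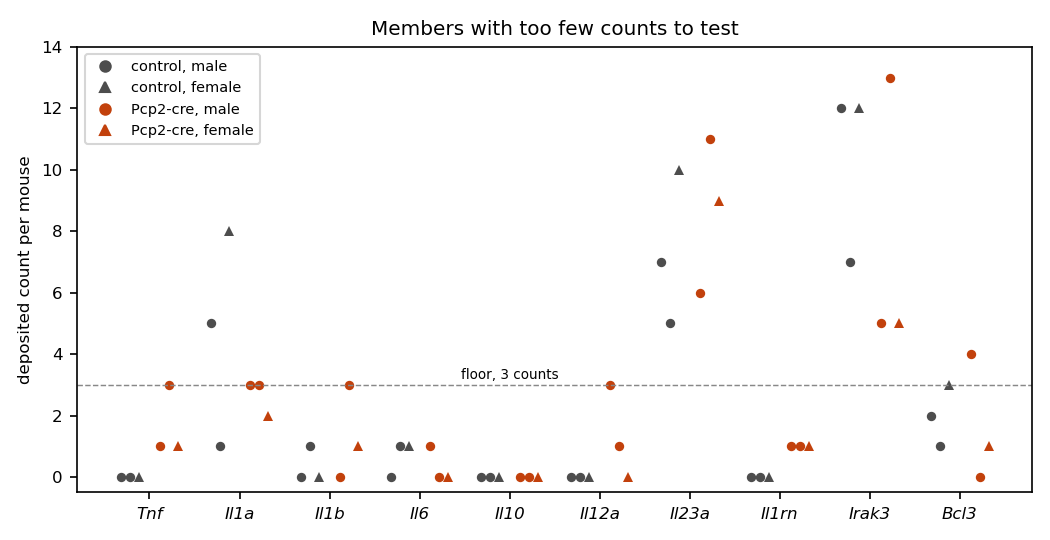
Deposited counts per mouse for the 10 members with too few counts to test, with the floor of 3 counts dashed. Most points lie at 3 or below, and Il23a and Irak3 are above it in every mouse with overlapping groups.

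The cytokine genes with appreciable transcript levels did not pass the test. Il33, an alarmin stored in nuclei of glial cells, had 192, 151 and 314 counts in controls and 226, 316 and 177 in Pcp2-cre mice. In CPM these were 24.0, 22.5 and 31.1 against 29.8, 36.5 and 26.2, so the groups overlapped, with control mouse 3 above Pcp2-cre mice 1 and 3. Its log2 fold change was 0.24 ± 0.12 (SE; edgeR, adjusted p = 0.285), with a 95% interval from -0.00 to 0.49. This value moved with libraries of both groups. It was 0.42 without control mouse 3 (edgeR, adjusted p = 0.0147) and 0.10 without Pcp2-cre mouse 2 (edgeR, adjusted p = 0.821). With the choroid plexus score in the model it was -0.00 (edgeR, adjusted p = 0.999), as it was without control mice 1 and 2. Over all alternatives the adjusted p ranged from 0.0147 to 0.999 and the fold threshold was not met in any.

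Il17d, an atypical interleukin of the nervous system and other tissues, had 104, 83 and 120 counts in controls and 104, 98 and 88 in Pcp2-cre mice. The groups overlapped and the log2 fold change was 0.03, with a 95% interval from -0.22 to 0.28. Il18, which like Il1b is matured by inflammasomes, had 63, 39 and 74 counts in controls and 50, 60 and 40 in Pcp2-cre mice. Its groups also overlapped, with a log2 fold change of -0.12 and an interval from -0.47 to 0.23. Tnfsf13b, the B cell survival factor BAFF, had 9, 3 and 19 counts in controls and 14, 21 and 8 in Pcp2-cre mice. The groups overlapped and the log2 fold change of 0.58 had a wide interval, from -0.23 to 1.39, so differences within that range could not be resolved. It moved with single libraries, from 1.18 without control mouse 3 to 0.27 without control mouse 2 and 0.30 without Pcp2-cre mouse 2, and it was -0.02 without control mice 1 and 2. By length-scaled level (FPKM), Il33 was at 7.83 ± 1.4 (SD, n = 3) in controls, Il17d at 6.31 ± 0.302, Il18 at 5.45 ± 0.139 and Tnfsf13b at 0.329 ± 0.139.

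The tumour necrosis factor receptors came nearest to a call. Tnfrsf1a, the broadly expressed death domain receptor, had 63, 52 and 63 counts in controls and 75, 82 and 76 in Pcp2-cre mice. In CPM the controls were at 7.86, 7.74 and 6.24 and the Pcp2-cre mice at 9.88, 9.47 and 11.2, with no overlap. The log2 fold change was 0.49 ± 0.15 (SE; edgeR, adjusted p = 0.0517), just short of both thresholds. Requiring 10 counts in every mouse or adding sex to the model gave an adjusted p of 0.0418 and 0.0476 (edgeR), with the fold still under the threshold. Without control mice 1 and 2 the log2 fold change was 0.70 and Tnfrsf1a was called (edgeR, adjusted p = 0.0315), as it was with the choroid plexus score in the model. Over all alternatives its adjusted p ranged from 0.0300 to 0.404.

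Tnfrsf1b, the second receptor for the same ligand and enriched in microglia within the brain, had 22, 8 and 19 counts in controls and 25, 30 and 27 in Pcp2-cre mice. In CPM the controls were at 2.74, 1.19 and 1.88 and the Pcp2-cre mice at 3.29, 3.46 and 3.99, also with no overlap. Its log2 fold change of 0.85 ± 0.27 passed the fold threshold but not the test (edgeR, adjusted p = 0.0577). Without control mouse 1 it was 1.15 and called (edgeR, adjusted p = 0.0297), and it was also called when no gene was filtered out. Over all alternatives its adjusted p ranged from 0.0297 to 0.442. The level of Tnfrsf1b in controls, 0.368 ± 0.0863 FPKM, was below that of Tnfrsf1a at 2.81 ± 0.449 FPKM (SD, n = 3).

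The other 4 receptors had smaller differences in the fit of all mice. Il6st, the signal transducer shared by the Il6 family, was the most abundant of the 6 at 15.7 ± 0.278 FPKM in controls, and its interval was the narrowest among the members, from -0.06 to 0.12 on the log2 scale. Il1r1 and Il1rap, which together form the signalling receptor for Il1a and Il1b, had log2 fold changes of 0.20 and -0.07. Il6ra, the ligand-binding chain for Il6, had a log2 fold change of 0.27. The values of Il1r1 and Il6ra moved with single libraries, to 0.08 and 0.10 without control mouse 3, and Il6ra to 0.10 without Pcp2-cre mouse 1. Without control mice 1 and 2 they were 0.40 and 0.58, and neither passed the test. In these 4 genes the groups overlapped in CPM.

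Of the 8 adaptors and ubiquitin ligases, 7 were tested and their log2 fold changes ran from -0.37 to 0.21. Irak4, the kinase that joins Myd88 below interleukin and Toll-like receptors, had 109, 88 and 126 counts in controls and 104, 141 and 102 in Pcp2-cre mice. In CPM these were 13.6, 13.1 and 12.5 against 13.7, 16.3 and 15.1, so the groups were separate only by the margin between control mouse 1 and Pcp2-cre mouse 1, and the test was not passed (log2 fold change 0.21; edgeR, adjusted p = 0.348). Of its exon bases, 15.7% overlap exons of Pus7l and Twf1 on the opposite strand, and the strand setting of the counting was not given in the sources used here, so reads of such overlapping genes cannot be told apart. The share was 16.2% for Myd88 and 13.7% for Il1a, and in the other lists 35.6% for Ccl3, 19.8% for Csf1r, 15.1% for Plau, 10.3% for Icam1, 13.9% for Pim1, 34.8% for Ier3 and 48.4% for Ccnd1. Bcl2a1b shares 48.5% with Gm29094 on the same strand. Traf1, an adaptor of tumour necrosis factor receptors and itself a target of NF-kB, had the lowest value, -0.37, with 9.11, 10.7 and 11.7 CPM in controls and 9.48, 8.77 and 5.92 in Pcp2-cre mice. The groups overlapped in CPM, with Pcp2-cre mouse 3 the low library. In FPKM they did not, at 3.52, 3.83 and 3.63 in controls and 3.04, 3.21 and 3.01 in Pcp2-cre mice. The log2 fold change of Traf1 was -0.21 without Pcp2-cre mouse 3 and -0.52 without control mice 1 and 2. With the choroid plexus score in the model it was -0.54 (edgeR, adjusted p = 0.114). Myd88, Ticam1, Traf2, Traf3 and Birc3 lay between -0.13 and 0.18, with overlapping groups. Irak3, a brake on Irak signalling, was untested at 12, 7 and 12 counts in controls and 5, 13 and 5 in Pcp2-cre mice.

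The kinases were among the best measured members. Chuk, the catalytic subunit IKK alpha, had the highest length-scaled level of the 43 genes, 28.8 ± 0.988 FPKM in controls. It had 644, 536 and 827 counts in controls and 658, 772 and 566 in Pcp2-cre mice, or 80.3, 79.8 and 81.9 against 86.7, 89.1 and 83.7 CPM. The groups did not overlap, yet the log2 fold change was only 0.10, with an interval from 0.00 to 0.20 (edgeR, adjusted p = 0.259). Ikbkg, the regulatory subunit NEMO, had 394, 346 and 507 counts in controls and 397, 449 and 350 in Pcp2-cre mice. Its groups of 49.2, 51.5 and 50.2 against 52.3, 51.8 and 51.8 CPM were separate by a small margin, with a log2 fold change of 0.05 (edgeR, adjusted p = 0.758). Ikbkb, the catalytic subunit IKK beta, and Map3k14, the kinase NIK of the alternative pathway, had log2 fold changes of -0.09 and 0.25 and overlapping groups. The value of Map3k14 was 0.14 without Pcp2-cre mouse 1 and 0.36 without control mice 1 and 2.

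Among the 5 NF-kB subunits, none passed the test and only Relb had groups that did not overlap. Relb, a subunit of the alternative pathway, had 21 counts in each control mouse and 28, 28 and 24 in Pcp2-cre mice. In CPM the controls were at 2.62, 3.13 and 2.08 and the Pcp2-cre mice at 3.69, 3.23 and 3.55. The log2 fold change was 0.45 with a wide interval, from -0.04 to 0.94 (edgeR, adjusted p = 0.338). It was 0.28 without control mouse 3, 0.58 without control mouse 2 and 0.74 without control mice 1 and 2. Nfkb1, which encodes the precursor of a classical subunit, and Rela, its usual partner, were at -0.01 and 0.09. Nfkb2, the precursor that pairs with Relb, and Rel were at 0.20 and 0.21. Overlapping exons on the opposite strand cover 38.1% of the exon bases of Nfkb2.

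**Figure D3:**
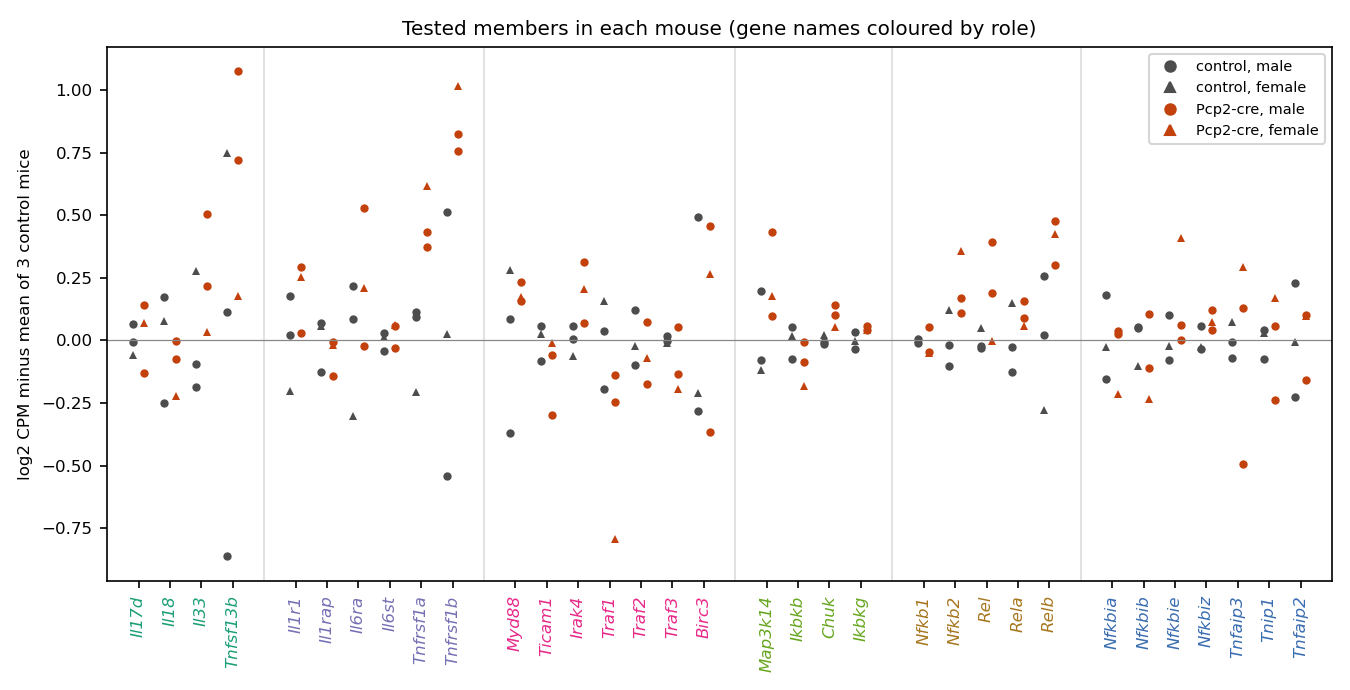
Level of each tested member in each mouse, as log2 CPM minus the mean of the 3 control mice, with circles for males and triangles for females. Of the 33 genes, 6 have all 3 Pcp2-cre mice above all controls: Tnfrsf1a, Tnfrsf1b, Irak4, Chuk, Ikbkg and Relb.

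Genes of IkB proteins and feedback inhibitors are often used as transcript readouts of NF-kB, since several are induced by it. Promoters of 4 of them, and of the subunit genes Nfkb2 and Rel, are therefore shown with the 10-letter NF-kB consensus, searched on both strands of the 300 bases from 250 before to 50 after each RefSeq start (table of build GRCm38.p6). Promoters were found for 37 of the 43 members, and Il10, Il23a, Ikbkb, Nfkb1, Relb and Nfkbiz had no entry. The consensus occurred in 13 of the members' 50 promoters (26.0%), from 11 genes, beside 8.46% of all 32851 promoters. The share was not particular to the members. In related lists described below it was 25% for other NF-kB signalling genes, 16.1% for other cytokine family genes and 33.3% for textbook NF-kB targets. The 11 member genes were Il6, Il1r1, Traf3, Nfkb2, Rel, Nfkbia, Nfkbie, Bcl3, Tnfaip3, Tnip1 and Tnfaip2. A stretch before the start is printed for 6 genes, Nfkbia as the standard target and the others chosen after the search because they hold the motif. Capitals mark the bases covered by a match. Those of Tnfaip3 match on both strands, and those of Tnip1, Nfkb2 and Rel hold several overlapping matches.
Nfkbia: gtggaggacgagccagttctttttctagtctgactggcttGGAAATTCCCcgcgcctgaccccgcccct
Nfkbie: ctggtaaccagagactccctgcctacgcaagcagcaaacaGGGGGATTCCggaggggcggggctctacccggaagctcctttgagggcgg
Tnfaip3: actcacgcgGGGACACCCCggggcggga
Tnip1: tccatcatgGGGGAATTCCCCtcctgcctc
Nfkb2: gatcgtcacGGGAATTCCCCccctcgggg
Rel: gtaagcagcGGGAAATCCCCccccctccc

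Each stretch was matched exactly, at 1 place on its chromosome, to the genome build of the count table. In GRCm39 they lie at chr12:55539433-55539501 (minus strand) for Nfkbia, chr17:45866480-45866569 (plus) for Nfkbie, chr10:18891265-18891292 (minus) for Tnfaip3, chr11:54853804-54853833 (minus) for Tnip1, chr19:46293128-46293156 (plus) for Nfkb2 and chr11:23721042-23721070 (minus) for Rel. Those of Nfkbia and Nfkbie lie outside annotated exons. Those of Tnip1, Nfkb2 and Rel lie within annotated exons of the same genes, for Nfkb2 also of 4833438C02Rik, and the stretch of Tnfaip3 shares 4 bases with an exon of Gm67161. A match describes the letters alone.

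None of the 7 tested genes in the group of IkB proteins and feedback inhibitors changed by the test. In the edgeR fit of all 6 mice all 7 had 95% intervals within 0.5 of 0 on the log2 scale. With DESeq2 the intervals of Nfkbie, Tnfaip3 and Tnfaip2 reached beyond 0.5, as they did with some single mice left out. Nfkbia, the IkB alpha gene whose promoter is printed above, had 203, 215 and 279 counts in controls and 218, 251 and 164 in Pcp2-cre mice. In CPM these were 25.3, 32.0 and 27.6 against 28.7, 29.0 and 24.3, with the groups overlapping, and the log2 fold change was -0.04 with an interval from -0.23 to 0.16 (edgeR, adjusted p = 0.900). Tnfaip3, a deubiquitinase that ends the signal, had 45, 36 and 60 counts in controls and 47, 34 and 47 in Pcp2-cre mice, a log2 fold change of -0.02 with an interval from -0.44 to 0.41. Tnip1, its binding partner, was at -0.00 and Nfkbie, a further IkB, at 0.16, both with overlapping groups. Nfkbib, Nfkbiz and Tnfaip2 lay between -0.07 and 0.08. Exons of other genes on the opposite strand cover 25.3% of the exon bases of Tnip1, 29.4% of those of Nfkbib and 13.6% of those of Tnfaip2. Bcl3, an atypical IkB, was untested at 2, 1 and 3 counts in controls and 4, 0 and 1 in Pcp2-cre mice.

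Among 40 other genes of NF-kB signalling, 34 were tested, 2 were called higher and 0 lower (3 and 2 at an unadjusted p under 0.05), with a median log2 fold change of 0.03. Tnip2, a partner of Tnfaip3 like Tnip1, had 41, 29 and 54 counts in controls and 56, 62 and 59 in Pcp2-cre mice, with no overlap in CPM and a log2 fold change of 0.63 ± 0.17 (SE; edgeR, adjusted p = 0.0246). Tnfrsf11a, the receptor RANK, had 17, 10 and 20 counts in controls and 28, 25 and 24 in Pcp2-cre mice, a log2 fold change of 0.82 ± 0.25 (edgeR, adjusted p = 0.0491). Neither call held under DESeq2 or limma on FPKM. Tnfrsf11a was lost on leaving out any 1 mouse, and Tnip2 on leaving out any mouse but control mouse 3. Without control mice 1 and 2 the list had 0 calls, with Tnip2 at 0.52 ± 0.23 and Tnfrsf11a at 0.75 ± 0.36, still above the fold threshold but with a larger SE. Tollip, an adaptor that dampens interleukin and Toll-like receptor signalling, had the smallest adjusted p of the list, 1.42e-05 (edgeR), and was lower in all 3 Pcp2-cre mice, at 175, 174 and 176 CPM against 216, 214 and 229 in controls. Its log2 fold change of -0.33 ± 0.04 was below the size required for a call.

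Of 65 other cytokine family ligands and receptors, 36 were tested, 4 were called higher and 0 lower (10 and 1 at an unadjusted p under 0.05), and the median log2 fold change was 0.19. Of these, 29 had too few counts to test, 6 of them with 0 counts in every mouse. Csf1r, the receptor on which microglia depend for survival, had 278, 194 and 338 counts in controls and 453, 560 and 440 in Pcp2-cre mice, a log2 fold change of 0.96 ± 0.07 (edgeR, adjusted p = 6.79e-09). Csf3r, the granulocyte colony-stimulating factor receptor, had 18, 15 and 32 counts in controls and 77, 67 and 74 in Pcp2-cre mice, a log2 fold change of 1.86 ± 0.21 (edgeR, adjusted p = 1.66e-06). All Pcp2-cre mice were above all controls for both genes, and both calls held in every alternative tried. Osmr, the oncostatin M receptor, rose by 0.66 ± 0.16 (edgeR, adjusted p = 0.0107), from 5.86, 5.06 and 5.35 CPM to 8.69, 7.96 and 9.17. Csf2rb, a shared receptor chain with a closely similar neighbouring copy, had 0, 8 and 3 counts in controls and 11, 20 and 9 in Pcp2-cre mice, a log2 fold change of 1.93 ± 0.56 (edgeR, adjusted p = 0.0355) that was 3.27 without control mouse 2 and 1.36 without control mouse 1. The calls of Osmr and Csf2rb were lost under DESeq2 and under limma on FPKM. Csf2rb was also lost on leaving out any mouse but control mouse 2, and Osmr without Pcp2-cre mouse 3, which left 2 calls in the list. Osmr was not called with the choroid plexus score in the model or without control mice 1 and 2 either, where its log2 fold change was 0.68 in both fits and its SE larger (edgeR, adjusted p = 0.0613 and 0.0606, in a range from 0.00881 to 0.196 over its alternatives). Csf1, a ligand of Csf1r, was at 0.48 ± 0.09 (edgeR, adjusted p = 0.00143), just under the fold threshold, and was called without control mouse 3, at 0.56, without Pcp2-cre mouse 1, at 0.50, and by limma on log2(FPKM + 0.1), at 0.54, though not by limma with the larger pseudocount. It was 0.38 with the choroid plexus score in the model, and 0.35 without control mice 1 and 2, where it did not pass the test (edgeR, adjusted p = 0.103, the highest of its alternatives, which began at 1.21e-05).

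The list of 48 textbook NF-kB target genes held the larger differences. Of these, 25 were tested, 7 were called higher and 0 lower (9 and 2 at an unadjusted p under 0.05), with a median log2 fold change of 0.21. A gene with few counts in controls could enter the test through its counts in Pcp2-cre mice. Ccl3, C3 and Plau were low in controls in this way, as was Csf2rb in the cytokine family list. The tally of calls and the median therefore depend in part on the differences themselves. Calls under a filter on every mouse are given below. Ccl3, a chemokine of activated microglia and macrophages, had 0, 0 and 2 counts in controls and 22, 19 and 16 in Pcp2-cre mice, a ratio of group sums of 30.7 with a 95% counting interval of 8.13 to 260 (edgeR, adjusted p = 6.59e-06). Both control counts were in control mouse 3, so without it the controls were at 0 and the size of the fold rests on that mouse. C3, the central complement component, had 2, 1 and 8 counts in controls and 23, 33 and 35 in Pcp2-cre mice, a log2 fold change of 3.12 ± 0.40 (edgeR, adjusted p = 1.08e-05). It was 4.17 without control mouse 3 and 2.30 without control mice 1 and 2, and was called in both cases. Plau, the urokinase protease, had 7, 4 and 8 counts in controls and 34, 30 and 29 in Pcp2-cre mice, a log2 fold change of 2.38 ± 0.29 (edgeR, adjusted p = 6.78e-06). For these 3 genes every Pcp2-cre mouse was above every control.

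Tlr2, a receptor for bacterial lipoproteins, and Irf8, a transcription factor of the microglial lineage, had log2 fold changes of 2.07 ± 0.31 and 2.00 ± 0.29 (edgeR, adjusted p = 7.22e-05 and 4.72e-05), each above all controls in 3 of 3 Pcp2-cre mice. Cd44, a hyaluronan receptor of reactive astrocytes and immune cells, was at 0.56 ± 0.12 (edgeR, adjusted p = 0.00285), with 78, 67 and 100 counts in controls and 106, 125 and 103 in Pcp2-cre mice. Cd44 was not called by DESeq2, and neither Cd44 nor Tlr2 was called by limma on unfiltered FPKM. Icam1, an adhesion molecule induced on endothelium and glia, had 11, 14 and 9 counts in controls and 21, 20 and 25 in Pcp2-cre mice, a log2 fold change of 1.05 ± 0.32 (edgeR, adjusted p = 0.0436). The call of Icam1 was lost on leaving out any mouse but control mouse 2, with DESeq2 and limma, and with mouse number as a block, while without control mice 1 and 2 it was called at 1.67. Requiring 10 counts in every mouse left 2 calls in the list, Cd44 and Irf8. Ccl4, a sister chemokine of Ccl3, was too low for the main test at 0 counts in each control and 10, 9 and 11 in Pcp2-cre mice. If the controls together held up to 3 counts, it was at least 10.8-fold higher. This limit allows for counting error in the controls only. Ccl4 was called by DESeq2, by limma on FPKM and by edgeR with no filter. Bcl2a1b, a survival gene with 0, 1 and 1 counts in controls and 3, 7 and 5 in Pcp2-cre mice, was called by limma and by edgeR with no filter, but not by DESeq2. Called like Ccl4 was Cd86, a costimulatory molecule with 3, 1 and 3 counts in controls and 7, 24 and 24 in Pcp2-cre mice, except by limma on unfiltered FPKM.

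Ccnd1, a cyclin, and Cd83, an activation marker of immune cells, passed the adjusted p but not the fold threshold, with log2 fold changes of 0.33 and 0.34 (edgeR, adjusted p = 0.00167 and 0.0378). In 3 of the 25 tested targets every Pcp2-cre mouse was below every control, and in 9 above, beside 11.4% and 10.8% of all tested genes. None of the 3 lower genes passed the test. Mmp9, a matrix protease, Pim1, a kinase, and Ier3, an early response gene, had log2 fold changes of -0.64, -0.44 and -0.32 (edgeR, adjusted p = 0.125, 0.0533 and 0.361). Of the other targets that did not pass the test, Sod2, the mitochondrial superoxide dismutase, Bcl2l1 and Cflar, inhibitors of cell death, and Vcam1, an endothelial adhesion molecule, had log2 fold changes from -0.05 to 0.18. The chemokine genes Ccl2, Ccl5, Ccl20, Cxcl1, Cxcl2, Cxcl5 and Cxcl10, and Nos2, Ptgs2 and Lcn2, had too few counts to be tested. In the plot of lists, the members and the other signalling genes gather around 0. Called genes of the target list run from 0.56 (Cd44) to 4.70 (Ccl3), beside 0.06 to 2.89 for the microglia markers.

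**Figure D4:**
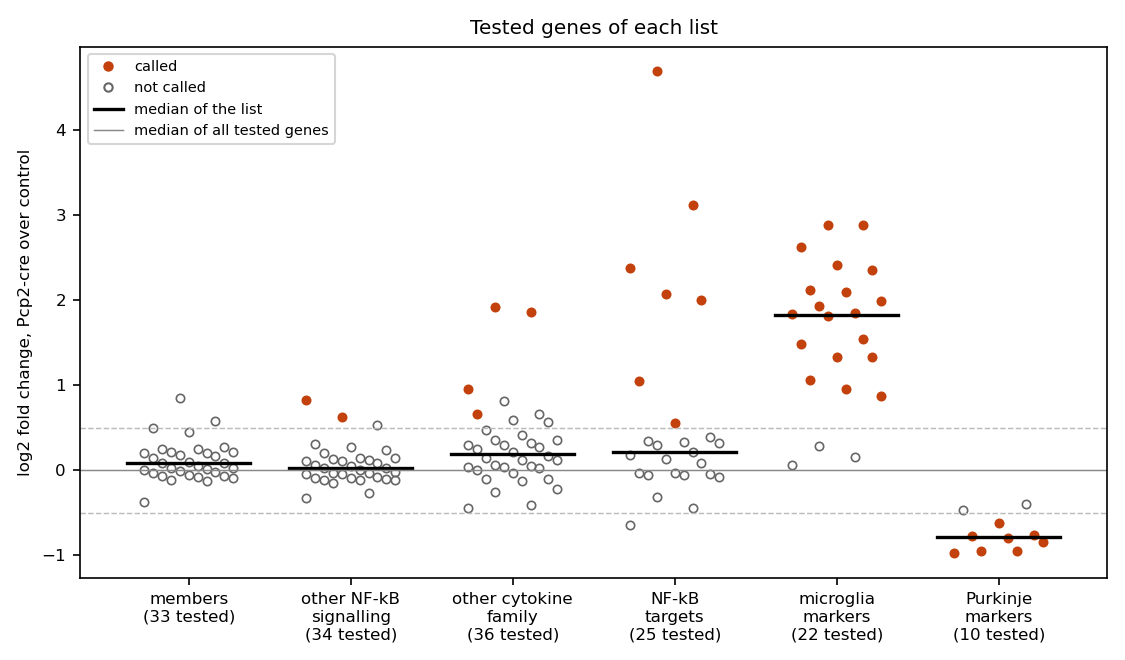
Log2 fold change of Pcp2-cre over control (edgeR) for each tested gene of 6 lists, filled where called, with the median of each list as a black bar. Members have 0 filled points and a median of 0.08, the target list has 7 filled points and microglia markers have 19 of 22.

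Cell type markers moved with genotype beside these lists, and their part in any difference above was not tested. Of 22 microglia markers, 19 were called higher and 0 lower, with a median log2 fold change of 1.83. Their summed level was 177, 176 and 178 CPM in control mice 1 to 3 and 516, 499 and 573 CPM in Pcp2-cre mice 1 to 3. The 3 that were not called, P2ry12, Tmem119 and Siglech, are genes of homeostatic microglia. Csf1r is in this list and in the cytokine family list. In bulk tissue, more or fewer cells of a type and more or less RNA per cell cannot be told apart.

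Of 12 astrocyte and Bergmann glia markers, Gfap and Aqp4 were called higher and 0 lower (7 higher and 3 lower at an unadjusted p under 0.05), and the summed level was 4175 ± 37.5 CPM (SD, n = 3) in controls and 4397 ± 31.2 in Pcp2-cre mice. Gfap, the intermediate filament of reactive astrocytes, was at 113, 130 and 121 CPM in controls and 429, 462 and 499 in Pcp2-cre mice. Of 10 Purkinje cell markers, 8 were called lower, and the list, led by Itpr1, had a summed level of 7030 ± 299 CPM in controls and 3822 ± 203 in Pcp2-cre mice. Granule cell markers, which define the labelled tissue, summed to 5197 ± 85.1 CPM in controls and 5395 ± 86.6 in Pcp2-cre mice, and 0 of 8 were called (3 higher at an unadjusted p under 0.05). Oligodendrocyte markers summed to 3421 ± 112 CPM in controls and 4054 ± 103 in Pcp2-cre mice, with 0 of 9 called by edgeR and 6 higher at an unadjusted p under 0.05. Endothelial and mural markers summed to 409 ± 4.78 and 435 ± 9.13 CPM, with 0 of 10 called and 2 higher at that level. Choroid plexus markers were called lower for 6 of 7 tested genes, following the 2 control libraries described above.

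Most markers of infiltrating leukocytes and border macrophages had too few counts to test. Of 18 leukocyte and border macrophage markers, 4 were tested with edgeR and 0 were called, with 0 at an unadjusted p under 0.05, and their summed level was 14.6, 12.1 and 16.0 CPM in controls and 16.6, 20.1 and 16.3 in Pcp2-cre mice. Mrc1, a border macrophage gene, was the most abundant. Of the 18 markers, 3 had 0 counts in all 6 mice: Cd3g, Nkg7 and Ly6g, genes of T cells, cytotoxic lymphocytes and neutrophils. All others had counts in at least 1 mouse, among them Cd3e and Cd8a of T cells and S100a8 and S100a9 of neutrophils.

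Without control mice 1 and 2, the target list had 9 calls higher, the other cytokine family list 3, the other signalling list 0 and the 43 members 1, where all genes gave 201 calls higher and 234 lower.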

How the data were processed

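Poly(A) RNA of PBS-perfused, snap-frozen cerebella was sequenced as paired reads. The submitters' processing notes and the study's methods name STAR, featureCounts and StringTie with build GRCm39 and Gencode. Versions, strand and multimapping settings were not given in the sources used here. The deposited count table holds raw counts per gene made by the authors. The deposited FPKM table holds the authors' values per length and depth, and was used for levels and as an alternative. These values are not the deposited counts rescaled. For example, Il12a had 0 counts but 0.0346 FPKM in control mouse 1.

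Counts were fitted with edgeR 4.0.16 (quasi-likelihood, filterByExpr, TMM, no covariate) in R 4.3.3, with Benjamini-Hochberg adjustment over all 16961 tested genes. Calls required an adjusted p no larger than 0.05 and a log2 fold change of 0.5 or more, up or down. CPM uses TMM-scaled totals. Intervals are 95%. The SE is the log2 fold change divided by the root of F. Alternatives used DESeq2 1.42.0, limma 3.58.1, other filters and scalings, covariates and leaving out mice.

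The members and lists were chosen with earlier results of these data known. Named genes are called members, members whose groups did not overlap, the cytokine ligands, Sting1, Ifnb1 and, from other lists, called genes, with up to 8 by smallest p given values. Genes named beyond this rule (among them Traf1, Il6st, Irak3, Bcl3, Tollip, Csf1, Il13ra1, Ccl4, Bcl2a1b, Mmp9 and Cd86) were chosen after their values were seen, and the fit without control mice 1 and 2 was chosen after seeing the data. Il36a and Il36g were matched through older symbols. Gene exons came from Gencode vM39. Xist counts fitted the labelled sex of all 6 mice. Replicates differed by more than sampling noise (chi-square per gene from 1.37 to 3.20), and each was counted as 1 mouse.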

Additional observations from a re-analysis of the deposited data

How the results depend on the processing

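All genes gave 233 calls higher and 304 lower. DESeq2 gave 146 higher and 224 lower. With limma on log2(FPKM + 1) 160 were higher and 185 lower, and without a filter 105 were higher and 116 lower. Without the fold threshold 507 were higher and 805 lower. Fitting mouse number as a block gave 229 higher and 319 lower. Correlations across genes between mice of the same number were 0.04, 0.06 and 0.17. The largest was that of mice 3, the female of each group, while mice of different number ran from -0.11 to 0.07.

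Members called higher were 0, but 1 with no filter (Tnfrsf1b), with the choroid plexus score as a covariate and without control mice 1 and 2 (Tnfrsf1a in both). Leaving out each mouse in turn gave 0 to 1. Members called lower were 0 in every alternative run. Intervals within 0.5 of 0 numbered 24 members, 14 with DESeq2. Calls of the other signalling genes were 2 higher, 0 with DESeq2, each limma fit, the choroid plexus score and without control mice 1 and 2, 1 with no filter, and 0 to 1 with each mouse left out. The other cytokine family genes had 4 higher, 2 with DESeq2 and with limma on log2(FPKM + 1) with or without the filter, 3 with limma on log2(FPKM + 0.1), 5 with sex as a covariate (Il13ra1 gained) and 2 to 4 with each mouse left out. Without the fold threshold 1 signalling gene (Tollip) and 1 cytokine family gene (Tnfrsf21) were lower. The target list had 7 higher, and 2 when each library had to hold 10 counts or more, a filter that removes genes near 0 in controls. It had 10 with no filter (Ccl4, Bcl2a1b and Cd86 gained), 9 with either limma fit on filtered values, 6 with the block and 6 to 9 with each mouse left out. Other causes were not tested.

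Of 592 members' log2 fold changes under the alternatives, 542 stayed on their side of the thresholds within 1 SE, 46 moved further without a call, 4 became calls and 0 called values reversed. Of 354 values of other genes, 57 lost their call, 9 gained one and 0 reversed. Tnfsf13b, Tnfrsf1b, Csf2rb, Ccl3, C3, Plau, Tlr2 and Icam1 had no value under the filter of 10 counts.

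Depth left 10 members untested. Only transcripts were measured, in bulk tissue of 3 mice a group, so values are not assigned to a cell type.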
